A study of Mus musculus with 42 samples.

Results

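The comparison is between 2 groups of *Ccdc40* mutant embryos, heterotaxy and situs inversus totalis, and its measure is the asymmetry of each gene, the log2 fold change of the right over the left side of the heart field. The groups were taken as the study drew them, from a clustering of the embryos by the left-right differences of a small set of genes that were asymmetric in wild types. Heterotaxy held the 6 embryos 3_7, 15_5, 18_1, 19_4, 23_3 and 32_3, and situs inversus totalis held the 5 embryos 2_7, 4_6, 10_3, 18_2 and 32_2. These 11 of 21 embryos gave 22 of the 42 libraries of the series, 1 library for each side of each embryo. All 11 were homozygous for the lnks allele of *Ccdc40* (Ccdc40lnks/lnks), a chemically induced nonsense mutation, and were collected at stage E8.5i, when the direction of looping of the heart tube can be seen. The labels gave rightward looping for all 6 embryos of heterotaxy and inverted looping for all 5 of situs inversus totalis. Heterotaxy had 4 males and 2 females, and situs inversus totalis had 3 males and 2 females. The other 10 embryos formed situs solitus, with 5 wild types (Ccdc40+/+) and 5 mutants of rightward looping. They appear below as a reference and shared in the estimate of the spread. The 5 mutants among them also entered the test by looping labels described below. The heart tube, head, back and lower trunk had been cut away, so that each library came from 1 side of the tissue behind the heart of a single embryo.

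In the mouse, beating cilia of the node drive a leftward flow of fluid that sets the left side of the body, and CCDC40 is needed to assemble cilia that beat. The flow leads to expression of *Nodal* in the left lateral plate mesoderm, where NODAL signals induce *Lefty2*, a secreted feedback antagonist that limits how far and how long they act. In situs inversus totalis the organs are mirrored as a whole, whereas in heterotaxy they follow no single side.

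The study formed the groups on a set of genes that were asymmetric in wild types. That set was rebuilt here as 30 genes with the same direction in each wild type, called the cluster genes below. The rebuilt set is larger than the one the study used, and the overlap of both was not examined. Values of the cluster genes are given as a description, without a test. The boundary between the groups is also that of the looping labels, so what expression chose is which 6 of the 11 mutants of rightward looping were called heterotaxy. For genes outside the cluster genes, adjusted p-values are from edgeR's quasi-likelihood test of whether the side effect differs between groups, fitted over the 42 libraries jointly and blocked by embryo, with Benjamini-Hochberg adjustment over all 26335 genes tested. The grouping was made from the same libraries, and a gene outside the rebuilt set may have been in the study's own. Beside these values stands therefore the same test for the labels alone, all 11 mutants of rightward looping against the 5 of inverted looping. A negative difference means that a gene was more right sided in situs inversus totalis than in heterotaxy.

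Library totals ranged from 37517697 to 49787293 counts in heterotaxy and from 36073684 to 62970327 in situs inversus totalis. The log2 ratio of the totals, right over left, differed by -0.08 between the groups (exact permutation test over 462 arrangements, two-sided p = 0.494). *Ccdc40* had 8.83 to 14.8 CPM, the count scaled to library size, in these 22 libraries and 15.2 to 26.5 CPM in wild types, and its asymmetry differed by -0.07 (SE 0.19, adjusted p = 0.971). The 10 markers fixed for the heart field were present in every library. *Isl1*, which marks second heart field progenitors, had at least 57.1 CPM and *Wnt2*, a ligand of cardiopulmonary progenitors, at least 119 CPM, and the lowest value of any was 2.93 CPM for *Hand2*.

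In the fit 16 of 26335 genes passed the threshold for a different asymmetry in heterotaxy and situs inversus totalis, which is 0.0608% of the genes fitted. Of these, 12 were outside the cluster genes, and the 4 others were cluster genes (*Dcaf12l1*, *Gm35533* and *4930512H18Rik* among them), whose passing is no test. The fitted log2 fold change of all 16 was below 0 in heterotaxy and in situs solitus and above 0 in situs inversus totalis. The left bias was thus shared by heterotaxy and situs solitus. It was close to 0 for some genes, and in situs solitus *Prss23*, *Hk1* and *Trpv2* had -0.08, -0.20 and -0.21. In the other direction edgeR called 0 genes, where 804 of the 2000 genes with an unadjusted p under 0.05 (3.05% and 7.59% of those tested) lay and DESeq2 called 19 (0.0721%). By the labels alone all 16, and so the 12, passed again, among 82 genes in total (0.311% of those tested), of which 77 (0.292%) were more right sided in inverted looping and 5 (0.0190%) in rightward looping. DESeq2 called 153 genes (0.581%), 134 of them (0.509%) more right sided in situs inversus totalis, and these also held all 16. Without the embryo block 8 genes were called. The fit called 40 genes without the embryo 19_4 and 25 without 15_5, and in males alone it called 5, with none of the 11 genes described next among them.

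**Figure D1:**
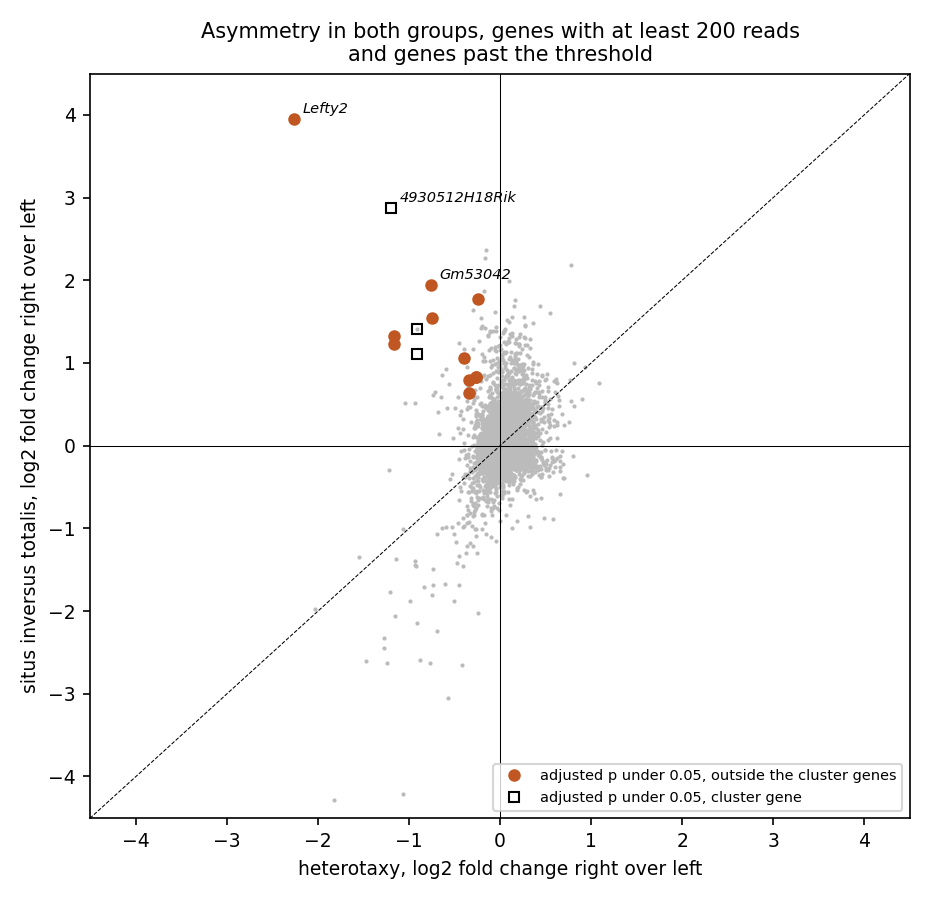
Log2 fold change of right over left in heterotaxy (x axis) against situs inversus totalis (y axis), for 11744 genes with at least 200 reads (grey points) and for 14 genes past the threshold, split into 11 outside and 3 among the cluster genes. All 14 lie in the upper left part of the plot, left sided in heterotaxy and right sided in situs inversus totalis, with *Lefty2* at -2.26 and 3.95.

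*Lefty2* (chromosome 1, 180720635 to 180726932, build GRCm39 as for all genes below) had the largest difference outside the cluster genes among those with at least 200 reads, meaning a mean of 200 counts on 1 side of 1 group. It had 5.56 ± 5.26 CPM (left) and 1.06 ± 1.04 CPM (right) in heterotaxy (SD, n = 6), and 0.276 ± 0.145 CPM (left) and 7.58 ± 11.4 CPM (right) in situs inversus totalis (SD, n = 5). Its log2 ratio in heterotaxy ran from -5.18 to -1.12 with a median of -1.93, and in situs inversus totalis it was 6.84, 2.76, 2.35, 4.21 and 2.6 in 2_7, 4_6, 10_3, 18_2 and 32_2, the order kept below. The embryos did not overlap, and the difference was -6.21 (SE 0.99, adjusted p = 0.00736, and 0.00217 by the labels alone). The left of situs inversus totalis had no more than 21 counts in any embryo, and the right of 2_7 alone had 1790 counts against 63 to 128 in the other 4. *Nodal* itself was at the edge of detection, with at most 11 counts in any of the 22 libraries. It was left sided in 6 of 6 embryos of heterotaxy and right sided in 3 of 5 of situs inversus totalis, a difference of -2.04 (SE 1.01, adjusted p = 0.665).

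Secreted proteins followed. *Nptx2* (chromosome 5, 144482692 to 144500381), a neuronal pentraxin, had 10.4 ± 2.73 CPM (left) and 6.22 ± 1.96 CPM (right) in heterotaxy and 4.49 ± 1.03 CPM (left) and 13.1 ± 3.05 CPM (right) in situs inversus totalis (SD, n = 6 and 5). Its log2 ratio was -1.44, -0.72, -1.32, 0.56, -0.69 and -0.84 in 3_7, 15_5, 18_1, 19_4, 23_3 and 32_3 of heterotaxy, and 1.37, 1.68, 0.95, 1.99 and 1.68 in situs inversus totalis. The difference was -2.30 (SE 0.38, adjusted p = 0.00939, and 0.00115 by the labels alone). *Bmper* (chromosome 9, 23134325 to 23396509), which encodes a protein that binds BMP ligands, had 11.2 ± 3.16 CPM and 8.40 ± 1.74 CPM on the left and right in heterotaxy, and 6.21 ± 0.969 CPM and 13 ± 2.26 CPM in situs inversus totalis. Its log2 ratios ran from -1.0 to 0.46 in heterotaxy with a median of -0.51, and were 1.22, 0.78, 1.07, 1.22 and 0.98 in situs inversus totalis. The difference was -1.46 (SE 0.25, adjusted p = 0.0121, and 0.000588 by the labels alone). Both genes were right sided in 19_4 and left sided in the other 5 embryos of heterotaxy.

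Several of the called genes encode enzymes. *Lpl* (chromosome 8, 69284603 to 69360100), the lipoprotein lipase that frees fatty acids from circulating fat, had 28.1 ± 7.79 CPM (left) and 22.0 ± 4.78 CPM (right) in heterotaxy, and 18.2 ± 1.77 CPM and 28.2 ± 3.45 CPM in situs inversus totalis (SD, n = 6 and 5). Its log2 ratios were from -0.65 to -0.09 in heterotaxy, with a median of -0.33, and 0.28, 0.68, 0.65, 0.90 and 0.63 in situs inversus totalis, a difference of -0.97 (SE 0.14, adjusted p = 0.00352, and 0.000351 by the labels alone). *Lpl* was thus left sided in every embryo of heterotaxy and right sided in every embryo of situs inversus totalis. *Hk1* (chromosome 10, 62104621 to 62215687), the hexokinase that starts glycolysis, had 59.5 ± 13 CPM (left) and 49.0 ± 7.71 CPM (right) in heterotaxy and 40.0 ± 4.51 CPM and 72.0 ± 15.5 CPM in situs inversus totalis. Its ratios were from -0.76 to 0.15 in heterotaxy, with a median of -0.24, and 0.36, 1.32, 0.48, 0.94 and 1.06 in situs inversus totalis, and the difference was -1.10 (SE 0.17, adjusted p = 0.00736, and 0.00241 by the labels alone). Of 20 genes of glycolysis and hypoxia tested, *Hk1* was the only one called, where 0.0608% of all genes were, and the median difference of that list was 0.08, against 0.01 over all genes.

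*Ddc* (chromosome 11, 11762602 to 11848150), the decarboxylase that makes dopamine and serotonin, had log2 ratios from -0.56 to 0.02 in heterotaxy, with a median of -0.27, and 0.54, 0.56, 1.06, 1.05 and 0.92 in situs inversus totalis. Its difference was -1.08 (SE 0.18, adjusted p = 0.00956, and 0.00115 by the labels alone). *Prss23* (chromosome 7, 89152034 to 89176756), a serine protease, had ratios from -0.90 to 0.28 in heterotaxy, with a median of -0.33, and 0.58, 1.06, 0.48, 0.99 and 0.83 in situs inversus totalis, a difference of -1.13 (SE 0.20, adjusted p = 0.0193, and 0.0216 by the labels alone). In situs solitus the sides of *Prss23* were nearly equal, with a log2 fold change of -0.08.

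Another 4 genes had fewer than 200 reads and are named here after their values were seen. They were *Rerg* (chromosome 6, 137031817 to 137147495), a small GTPase of the Ras family, *Col4a4* (chromosome 1, 82426144 to 82564800), a collagen of basement membranes, *Trpv2* (chromosome 11, 62465304 to 62491341), a cation channel, and the long noncoding RNA *Gm53042* (chromosome 11, 65050735 to 65062061). *Rerg* had 2.94 ± 0.588 CPM (left) and 1.33 ± 0.391 CPM (right) in heterotaxy and 1.43 ± 0.223 CPM and 3.37 ± 0.639 CPM in situs inversus totalis (SD, n = 6 and 5), and its difference was -2.39 (SE 0.34, adjusted p = 0.00344, and 0.000759 by the labels alone). For *Col4a4* the difference was -2.50 (SE 0.41, adjusted p = 0.00939, and 0.00249 by the labels alone), and for *Gm53042* it was -2.71 (SE 0.51, adjusted p = 0.0364, and 0.0123 by the labels alone). *Trpv2* had similar levels on both sides in heterotaxy, 2.25 ± 1.25 CPM (left) and 1.96 ± 1.31 CPM (right), and 0.659 ± 0.457 CPM (left) and 2.02 ± 0.411 CPM (right) in situs inversus totalis. Its difference was -2.02 (SE 0.37, adjusted p = 0.0273, and 0.0104 by the labels alone). Some calls ended when 1 embryo was left out, in 9 of 11 such fits for *Gm53042*, 8 for *Trpv2*, 6 for *Prss23* and 2 each for *Bmper* and *Ddc*.

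**Figure D2:**
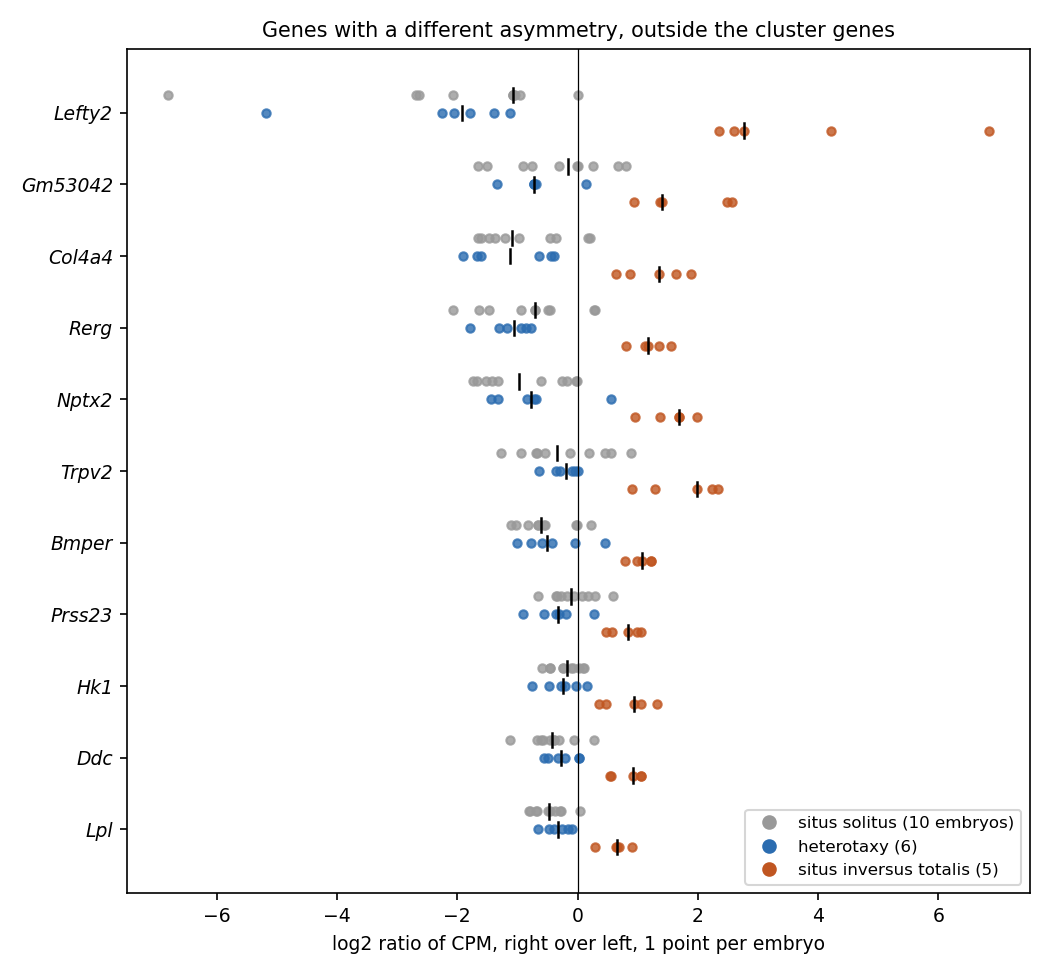
Log2 ratio of CPM, right over left, for 11 genes past the threshold outside the cluster genes, with 1 point per embryo and a black mark at the median of each group. In every gene the 5 embryos of situs inversus totalis lie to the right of 0 and of all 6 embryos of heterotaxy.

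In 12 of 12 genes outside the cluster genes the log2 fold change was further from 0 in situs inversus totalis than in heterotaxy. The genes were chosen by the difference of these same values. Nothing is therefore read from this count or from those of the next sentence, which were not tested. All 12 were right sided in each of the 5 embryos of situs inversus totalis, and 5 of the 12 were left sided in each of the 6 embryos of heterotaxy. Levels on each side are given as a description, because a gene chosen for its difference of sides tends to be higher on the left or lower on the right of heterotaxy. On the left the level was higher in heterotaxy for 12 of 12 genes, and on the right it was lower in heterotaxy for 12 of 12, by as little as 0.03 on the log2 scale for *Trpv2*. Of these differences, 12 on the left and 9 on the right had an unadjusted p under 0.05, where 7.72% of all genes did on the left and 4.08% on the right, and nothing is read from these counts. After adjustment over all genes, *Lefty2* (log2 difference 4.36, SE 0.71, adjusted p = 0.0347) and *Nptx2* (1.23, SE 0.20, adjusted p = 0.0347) passed on the left by edgeR, where 3 of 24838 genes (0.0121%) did. On the right 0 of 24859 genes passed by edgeR, with 1014 at an unadjusted p under 0.05. In bulk tissue, fewer cells of a type and less RNA per cell cannot be told apart.

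**Figure D3:**
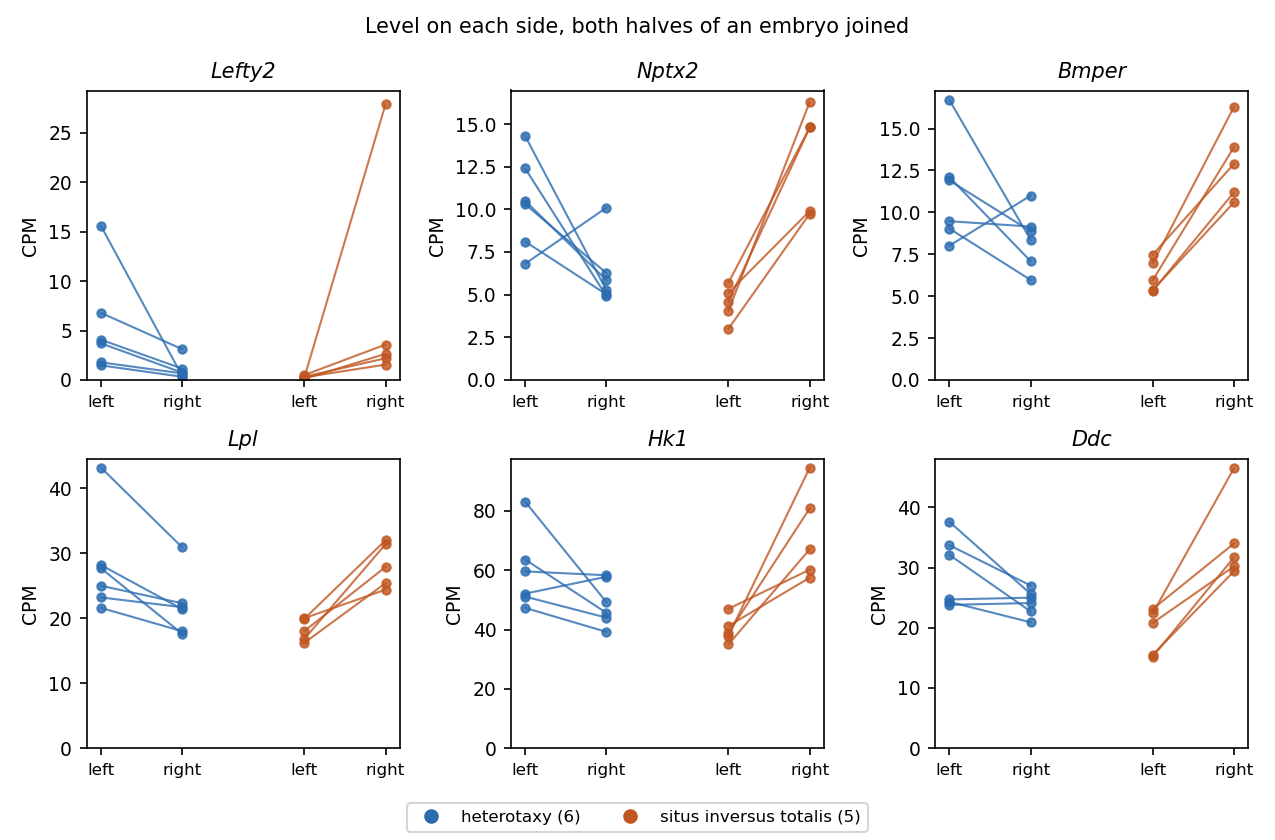
Levels in CPM of 6 genes called outside the cluster genes on the left and right of each embryo, with both sides of an embryo joined by a line, for 6 embryos of heterotaxy and 5 of situs inversus totalis. *Lefty2* and *Lpl* fall from left to right in each embryo of heterotaxy, and all 6 genes rise in each embryo of situs inversus totalis.

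Promoter sequence is shown for called genes because they moved together. Promoters in RefSeq for the build GRCm38.p6, which span 250 bases before to 50 bases after a start, were given for 8 of the 16 genes, as 21 sequences in all. They were searched on both strands for AATCCACA, bound by FOXH1, a partner of SMAD proteins in NODAL signalling, for CTTTGAT, bound by TCF and LEF proteins of the WNT pathway, for the SMAD palindrome GTCTAGAC and for TATAAA, the TATA box. AATCCACA, CTTTGAT and GTCTAGAC were found in 0 of the 21, and in 0.855%, 3.73% and 0.213% of all 32851 promoters of the table. TATAAA was in 2 of the 21 (9.52%) and in 13.6% of all. The sequences that follow are a promoter of *Ddc*, that of *Bmper*, and both of *Hk1*, which differ in base composition. In that of *Ddc* the capitals mark TTTATA, a match to TATAAA on the other strand. Matches were counted at any position, so a match need not be a working TATA box.
*Ddc*, chr11:11898095-11898394, minus strand: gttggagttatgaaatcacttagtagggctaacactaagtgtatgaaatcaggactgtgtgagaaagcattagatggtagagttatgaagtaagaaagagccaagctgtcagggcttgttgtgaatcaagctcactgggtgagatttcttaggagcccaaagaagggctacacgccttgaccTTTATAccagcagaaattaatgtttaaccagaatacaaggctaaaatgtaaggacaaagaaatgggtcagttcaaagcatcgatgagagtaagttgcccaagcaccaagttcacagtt
*Bmper*, chr9:23222826-23223125, plus strand: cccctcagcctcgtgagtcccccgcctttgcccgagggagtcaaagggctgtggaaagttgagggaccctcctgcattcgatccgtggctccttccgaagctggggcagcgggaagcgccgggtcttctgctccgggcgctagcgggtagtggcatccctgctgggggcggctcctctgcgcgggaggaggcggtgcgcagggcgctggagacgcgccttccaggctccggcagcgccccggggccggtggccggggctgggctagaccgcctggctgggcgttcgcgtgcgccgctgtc
*Hk1*, chr10:62340372-62340671, minus strand: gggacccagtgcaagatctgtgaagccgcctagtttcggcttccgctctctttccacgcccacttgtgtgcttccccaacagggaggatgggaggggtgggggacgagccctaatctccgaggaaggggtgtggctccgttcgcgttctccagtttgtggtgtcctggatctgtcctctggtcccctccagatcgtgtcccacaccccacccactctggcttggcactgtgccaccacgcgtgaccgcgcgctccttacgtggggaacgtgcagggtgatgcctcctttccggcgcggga
*Hk1*, chr10:62379859-62380158, minus strand: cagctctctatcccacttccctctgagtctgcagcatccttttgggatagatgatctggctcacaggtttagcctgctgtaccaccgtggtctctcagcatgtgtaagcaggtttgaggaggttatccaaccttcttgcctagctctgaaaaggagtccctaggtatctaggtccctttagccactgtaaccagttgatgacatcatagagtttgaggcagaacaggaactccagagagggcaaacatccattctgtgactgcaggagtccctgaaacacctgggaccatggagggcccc
The promoter of *Bmper* has 72.7% G and C and the downstream and upstream starts of *Hk1* have 63.3% and 51.3%, where the median of all promoters is 52.7%. The counts do not separate the starts of a gene, so that the asymmetry of *Hk1* cannot be assigned to either.

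Of the 30 cluster genes, 20 were right sided in situs inversus totalis and 14 in heterotaxy, with a median difference of -0.25. *Dcaf12l1* (chromosome X, 43875444 to 43879205), which encodes a protein with WD repeats, had 22.2 ± 6.47 CPM (left) and 11.7 ± 2.96 CPM (right) in heterotaxy, and 10.5 ± 3.09 CPM and 27.8 ± 6.61 CPM in situs inversus totalis, a difference of -2.32. The long noncoding RNAs *Gm35533* and *4930512H18Rik* differed by -2.02 and -4.07. *Ccn4*, a secreted matricellular protein and target of WNT signalling, had log2 ratios on both sides of 0 in heterotaxy, from -0.57 to 0.50 with a median of -0.03, and was right sided in every embryo of situs inversus totalis, at 0.56, 0.38, 1.27, 1.59 and 1.18. In situs solitus all 10 embryos had *Ccn4* on the left, from -1.48 to -0.36. *D030025E07Rik*, a noncoding RNA, and *Igfbpl1*, which encodes a protein related to IGF binding proteins, were higher on the right in each of 6 embryos of heterotaxy and higher on the left in each of 5 of situs inversus totalis. Their differences were 1.24 and 0.83. In all, 8 of the 30 cluster genes did not overlap between the groups, 6 of them more right sided in situs inversus totalis and 2 in heterotaxy (1.11%, 0.801% and 0.308% of all genes tested, from which nothing is read), whereas those that follow overlapped. *Postn*, a matrix protein, had log2 fold changes of 0.08 in heterotaxy and 0.55 in situs inversus totalis, and *Pitx1*, a homeobox transcription factor, had 0.51 and 0.86, whereas both were left sided in situs solitus, at -1.41 and -1.15. *Nkx2-1*, a transcription factor of lung and thyroid, had 2.27 and 0.31, with an SE of 1.81 for the difference.

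Among 25 genes that the study names, *Lefty2* was the only one called outside the cluster genes, where 0.0608% of all genes were called. These 25 were chosen by the study on the same embryos and are no independent evidence of a direction. *Ptgfr*, a prostaglandin receptor, was right sided in 5 of 6 embryos of heterotaxy, with log2 ratios from -0.13 to 0.84, and left sided in all 5 of situs inversus totalis, at -0.79, -0.66, -0.67, -1.36 and -0.77. Its difference was 1.16 (SE 0.25, adjusted p = 0.0784, and 0.00334 by the labels alone). The embryos did not overlap, which held for 292 of all genes tested (1.11%), for 81 in this direction (0.308%) and for 211 in the other (0.801%). *Bmp2*, a BMP ligand of the forming atrioventricular canal, had nearly equal sides in heterotaxy, 41.1 ± 9.12 CPM (left) and 42.4 ± 15.2 CPM (right), and 21.3 ± 5.10 CPM and 47.4 ± 8.57 CPM in situs inversus totalis. Its log2 ratios ran from -0.42 to 0.59 and from 0.81 to 1.60 without overlap, and the difference was -1.16 (SE 0.27, adjusted p = 0.118, and 0.0184 by the labels alone). *Osr1*, a transcription factor of the posterior second heart field, was on the left in every embryo of heterotaxy, from -0.80 to -0.09, and on the right in every embryo of situs inversus totalis, from 0.24 to 0.88, with a difference of -1.05 (SE 0.28, adjusted p = 0.228, and 0.0815 by the labels alone). *Wnt11*, a ligand of noncanonical WNT signalling, differed by -1.69 (SE 0.43, adjusted p = 0.187, and 0.0317 by the labels alone), with the ratio of 19_4, 1.06, inside the range of situs inversus totalis. *Lefty1*, a relative of *Lefty2* known from the midline, had 1 to 22 counts per library and a difference of -0.27 (SE 0.95, adjusted p = 0.978), with a sign that turned in some alternatives. *Hspb8*, a small heat shock protein, had log2 fold changes of 0.27 in heterotaxy and 0.99 in situs inversus totalis, a difference of -0.73 (SE 0.22, adjusted p = 0.321). In 15_5 it had 51.5 and 70.8 CPM on the left and right, against 6.83 to 15.0 CPM in the other libraries of heterotaxy.

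Signalling pathways were described by lists of their members. Of 23 members of the NODAL pathway tested, *Lefty2* was the only one called outside the cluster genes, where 0.0608% of all genes were called. At an unadjusted p under 0.05, members outside the cluster genes were more right sided in situs inversus totalis for 3 and in heterotaxy for 3, which 4.54% and 3.05% of all genes were. Besides *Lefty2*, *Nodal* and *Lefty1*, given above, members with a difference below 0 included *Skil*, a SMAD corepressor, at -0.45 (SE 0.16, adjusted p = 0.478), *Furin*, a protease that matures ligands, at -0.44 (SE 0.19, adjusted p = 0.580), and *Dand5*, an antagonist made at the node, at -0.26 (SE 0.18, adjusted p = 0.790). *Ism1*, a secreted protein known as an inhibitor of NODAL, had a difference above 0, at 0.60 (SE 0.27, adjusted p = 0.617), with a lower level on the right in each of 5 embryos of situs inversus totalis and in 3 of 6 of heterotaxy. Of 31 members of the BMP pathway 1 was called, *Bmper*, and 5 were more right sided in situs inversus totalis and 1 in heterotaxy at an unadjusted p under 0.05, where 4.54% and 3.05% of all genes were. The ligand *Bmp4* differed by -0.70 (SE 0.25, adjusted p = 0.474), and *Id2*, a target that responds to BMP, by -0.30 (SE 0.10, adjusted p = 0.408). The median of the BMP list was -0.14, against 0.01 for all genes tested.

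In the lists of WNT ligands, receptors and modulators (45 tested), canonical WNT targets (15), FGF (18), retinoic acid (16), Hedgehog (14), Notch (17), TGF-beta and activin (15) and Hippo targets (12), 0 genes were called by edgeR. DESeq2, which called 0.581% of all genes, called *Wnt11* and *Spry4* in these lists, and also the WNT target *Ccn4*, a cluster gene for which this is no test. At an unadjusted p under 0.05 these 8 lists had between 0 and 3 genes in either direction, *Ccn4* included. Of all genes tested, 4.54% were more right sided in situs inversus totalis and 3.05% in heterotaxy at that threshold. *Spry4*, a feedback inhibitor of FGF signalling, went from -0.35 in heterotaxy to 0.71 in situs inversus totalis (difference -1.06, SE 0.24, adjusted p = 0.0999, and 0.0184 by the labels alone). The retinoic acid, Hedgehog and Notch lists each had a median difference of 0.17. The genes *Stra6*, a retinol transporter, and *Gas1*, a coreceptor for Hedgehog ligands, had differences of 0.46 (SE 0.18, adjusted p = 0.514) and 0.66 (SE 0.22, adjusted p = 0.403). At an unadjusted p under 0.05 the retinoic acid list had 3 of 16 genes and the Hedgehog list 2 of 14 in this direction, and 3.05% of all genes did.

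**Figure D4:**
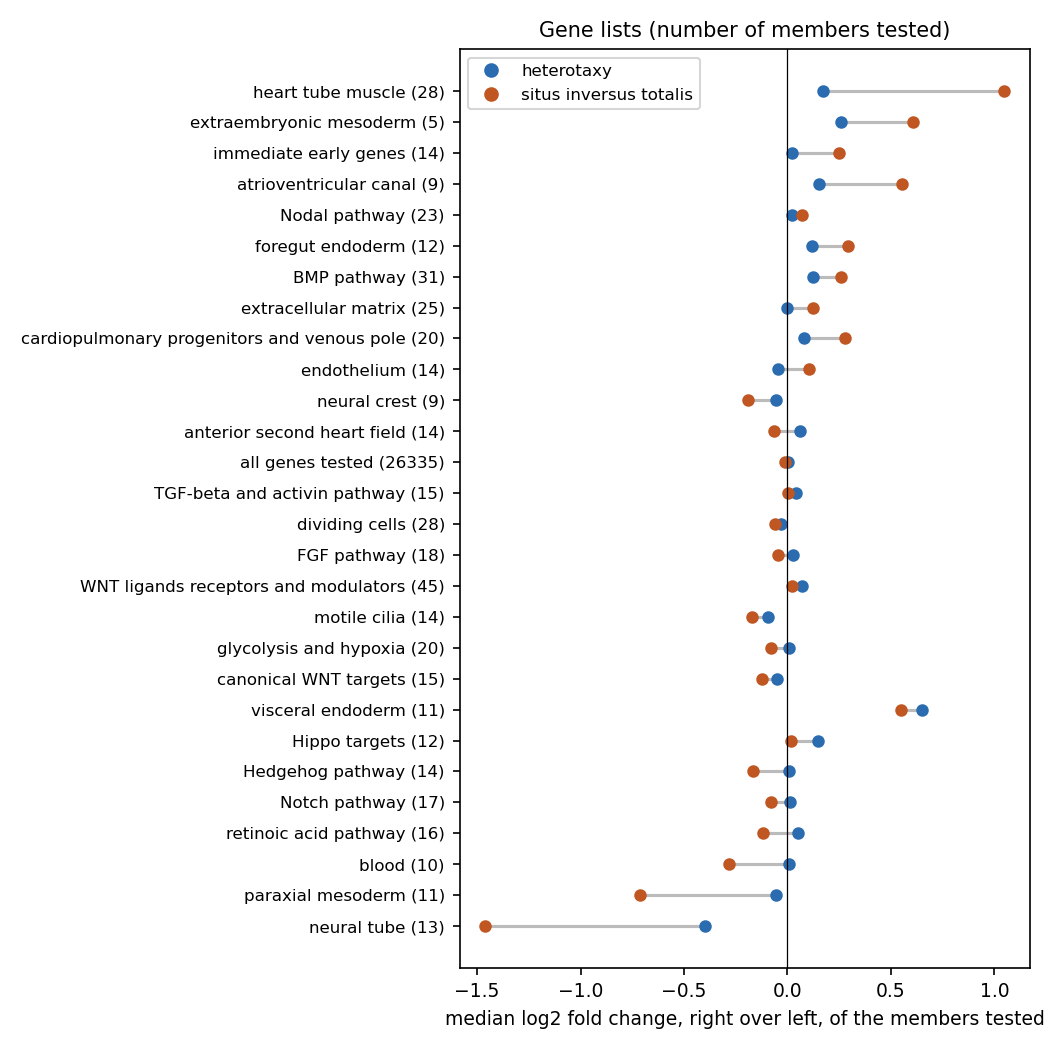
Median log2 fold change of right over left in heterotaxy (blue) and in situs inversus totalis (orange) for each gene list and for all genes tested, sorted by the median of the differences. Heart tube muscle has the most negative median difference, -0.89, and neural tube the most positive, 0.60.

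Heart muscle genes had the most negative median of the differences of single genes among these lists, at -0.89, although the medians of the groups were further apart for neural tube, at -0.40 in heterotaxy and -1.46 in situs inversus totalis. Of 28 genes of the heart tube, which was cut away before the sides were parted, 0 were called by edgeR or DESeq2, and 11 were more right sided in situs inversus totalis at an unadjusted p under 0.05, which was so for 4.54% of all genes, and 0 in heterotaxy. Right over left, 27 of 28 were above 0 in situs inversus totalis and 26 of 28 in heterotaxy, with medians of 1.05 and 0.17. *Tnni3*, a cardiac troponin, differed by -1.42 (SE 0.45, adjusted p = 0.380), and *Ttn*, the giant sarcomere protein titin, by -1.17 (SE 0.46, adjusted p = 0.525). The summed level of the list was 2493 to 4601 CPM on the left and 4544 to 8925 CPM on the right of situs inversus totalis, and 2897 to 8724 CPM and 3821 to 6909 CPM in heterotaxy. Its log2 ratio was 0.64, 0.97, 0.87, 1.15 and 1.32 in situs inversus totalis, and -0.45, 0.38, -0.15, 1.25, -0.14 and 0.06 in 3_7, 15_5, 18_1, 19_4, 23_3 and 32_3 of heterotaxy. The groups thus overlapped through 1 embryo, 19_4, in which *Nptx2*, *Bmper*, *Prss23*, *Hk1*, *Gm53042* and *Ddc* were right sided as well, at 0.56, 0.46, 0.28, 0.15, 0.14 and 0.02. In that embryo *Lefty2* at -1.12, *Rerg* at -0.86 and *Lpl* at -0.16 were left sided. The part that the muscle content of the sides had in the results was not tested.

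Summed ratios of other tissues were described in the same way, without a test of the sides. In the lists of neural tube (13 tested), paraxial mesoderm (11), foregut endoderm (12) and endothelium (14), 0 genes were called by edgeR or DESeq2. At an unadjusted p under 0.05 these lists had 0, 0, 3 and 3 genes more right sided in situs inversus totalis and 2, 1, 0 and 0 in heterotaxy. Of all genes tested, 4.54% and 3.05% were. Neural tube markers, 13 genes, had a summed log2 ratio of -0.93 ± 0.47 in situs inversus totalis (SD, n = 5), below 0 in each embryo, and of -0.14 ± 0.54 in heterotaxy (SD, n = 6), where 15_5 and 19_4 were at -0.98 and -0.65 and the other 4 between 0.11 and 0.28. *Pax6*, a transcription factor of the neural tube, differed by 1.78 (SE 0.84, adjusted p = 0.646). Markers of paraxial mesoderm were at -0.65 ± 0.39 in situs inversus totalis and 0.01 ± 0.65 in heterotaxy, and those of foregut endoderm at 0.48 ± 0.36 and 0.13 ± 0.25. Endothelial markers, 14 genes, overlapped in a single pair of embryos, since the highest of heterotaxy was 0.03 and the lowest of situs inversus totalis 0.01, with means of -0.06 ± 0.07 and 0.15 ± 0.09. *Etv2* and *Kdr*, early endothelial genes, differed by -0.61 (SE 0.19, adjusted p = 0.362) and -0.36 (SE 0.11, adjusted p = 0.360). In the lists of visceral endoderm (11 tested), blood (10) and neural crest (9), 0 genes passed an unadjusted p of 0.05 by edgeR in either direction and DESeq2 called 0, and their summed ratios overlapped. The part that these tissues had in the results was not tested.

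**Figure D5:**
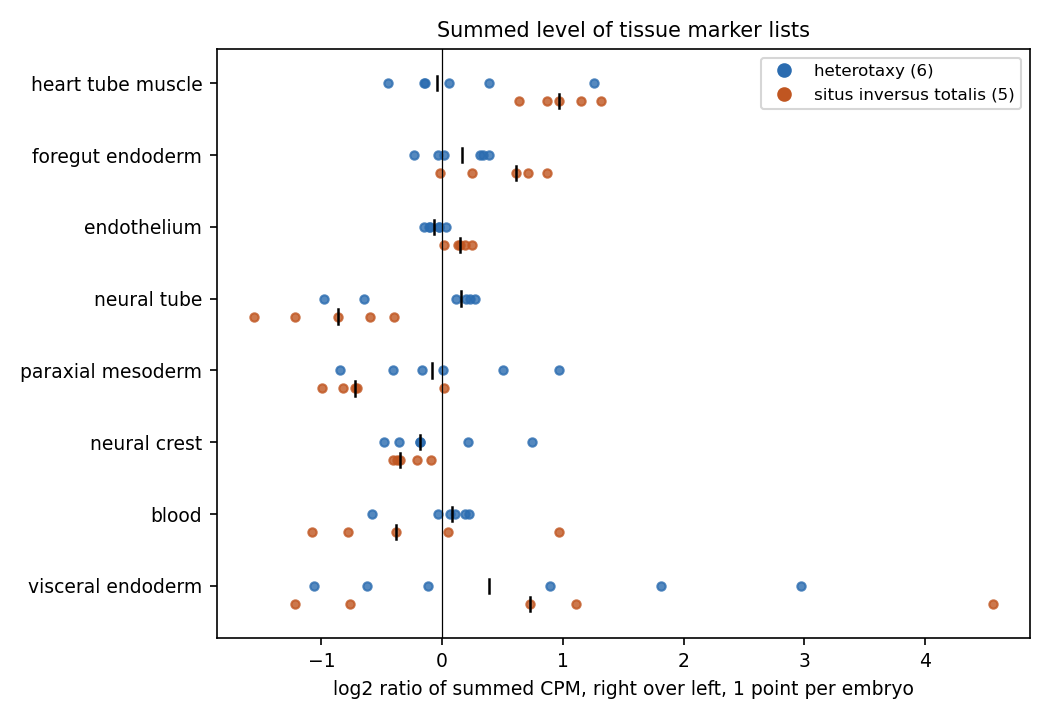
Log2 ratio of the summed CPM of 8 lists of tissue markers, right over left, with 1 point per embryo and a black mark at the median, for 6 embryos of heterotaxy and 5 of situs inversus totalis. Heart tube muscle lies right of 0 and neural tube left of 0 in every embryo of situs inversus totalis, and heterotaxy lies on both sides of 0.

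For progenitor genes of the heart field, in the lists of cardiopulmonary progenitors and venous pole (20 tested), anterior second heart field (14), atrioventricular canal (9) and extracellular matrix (25), 0 genes were called by edgeR. DESeq2, which called 0.581% of all genes, called 1 each in the last 2. At an unadjusted p under 0.05, 2, 1, 3 and 4 genes of these lists in turn were more right sided in situs inversus totalis and 1, 2, 0 and 0 in heterotaxy. Of all genes tested, 4.54% and 3.05% were. The median difference of the anterior second heart field was -0.02. *Mef2c*, a transcription factor of the anterior second heart field, differed by -0.71 (SE 0.26, adjusted p = 0.475), *Shox2*, needed in the sinus node, by -0.91 (SE 0.41, adjusted p = 0.612), *Gal*, the peptide galanin, by -2.04 (SE 0.67, adjusted p = 0.398), and *Col5a1*, a fibrillar collagen, by -0.85 (SE 0.22, adjusted p = 0.187, and 0.0361 by the labels alone). In the other direction, *Foxc1* and *Foxc2*, forkhead transcription factors of the anterior second heart field, differed by 0.71 (SE 0.28, adjusted p = 0.525) and 0.94 (SE 0.38, adjusted p = 0.550), and *Hoxb1*, a homeobox gene of the posterior second heart field, by 0.42 (SE 0.16, adjusted p = 0.511). Of 28 genes of dividing cells tested, 0 had an unadjusted p under 0.05 by edgeR or were called by DESeq2, and their median difference was 0.03.

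Asymmetry over the whole transcriptome was also compared. For 11472 genes with a mean of at least 200 counts over all libraries, the SD of the log2 ratios within an embryo was between 0.191 and 0.412 in heterotaxy and between 0.281 and 0.415 in situs inversus totalis, with means of 0.283 and 0.372 (exact permutation test, two-sided p = 0.0736, n = 6 and 5). The highest of heterotaxy was 19_4. The level over both sides, summed within each embryo, differed for 0 of 27606 genes by edgeR, with 1136 at an unadjusted p under 0.05 (4.12%), and for 1 gene by DESeq2 (0.00362%), with 4.77% of genes at an unadjusted p under 0.05.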

How the data were processed

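Left and right sides of the heart field of 21 embryos were sequenced as 42 libraries of poly-A RNA. The authors deposited raw counts per gene, made by alignment with STAR to GRCm39, removal of duplicates and counting with featureCounts (Subread 2.0.6), and the strand setting is not given in the sources used here. Sides, sexes, genotypes and looping came from the labels, and the laterality groups from the study. The genes compared, the lists and the groups were chosen with earlier results of these data known. Genes were kept by filterByExpr (at least 5 counts in a library and 10 in total, with large.n at 50 and min.prop at 0.2), scaled by TMM and tested in edgeR 4.0.16 (R 4.3.3) with the embryo as a block, calling an adjusted p under 0.05. Alternatives used DESeq2 1.42.0 and limma 3.58.1. Scripts were tested on simulated data. CPM used effective library sizes, and ratios per embryo a prior count of 2. Both sides of a number come from 1 embryo, which gives the pairing, and their deviations correlated with a median of 0.475 and a lowest value of -0.0589 over 2000 genes.

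Genes were named by rule: up to 10 per direction by size of the difference among called genes with groups that do not overlap and at least 200 reads, up to 4 per list by adjusted p, the genes the study names, and the rebuilt cluster genes. All library pairs of the 22 differed by more than sampling noise, with a lowest chi-square of 9.29 per gene over 231 pairs. Between 36073684 and 62970327 counts per library stood behind the values. Intervals of counting error were not needed, because every value has replicate embryos. Genes that share reads with copies or overlap on the other strand could not be separated. Items withheld for evaluation are not reported here.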

Additional observations from a re-analysis of the deposited data

Results flagged for a closer look

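For 16 genes the asymmetry passed the threshold between heterotaxy and situs inversus totalis by the interaction of side and group in edgeR's quasi-likelihood fit, and 11 of those outside the rebuilt cluster genes are given here with the test of the difference itself as what singled them out. On the log2 scale the difference was -6.21 for *Lefty2*, -2.30 for *Nptx2*, -1.46 for *Bmper*, -1.13 for *Prss23*, -1.10 for *Hk1*, -1.08 for *Ddc* and -0.97 for *Lpl*. For the 4 genes of fewer than 200 reads it was -2.50 for *Col4a4*, -2.39 for *Rerg*, -2.02 for *Trpv2* and -2.71 for *Gm53042*.

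A gap test for a single embryo far from the rest of its group singled out 14 of 208 groups of embryos (6.73%), where chance gives about 1 in 20. In heterotaxy the log2 ratio of 15_5 was -5.18 for *Lefty2*, against -2.26 to -1.12 in the others, and 0.45 for *Tnc*, a matrix protein, against -0.46 to -0.20. The embryo 19_4 had 0.56 for *Nptx2*, against -1.44 to -0.69, and 0.96 for *Mef2c*, against -0.37 to 0.10. Its summed ratio was 0.58 for the anterior second heart field and -0.23 for motile cilia. The embryo 23_3 had -0.58 for blood.

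In situs inversus totalis *Ptgfr* was at -1.36 in 18_2, *Skil* at 0.006 in 10_3 and *Shox2* at 0.19 in 2_7, against 1.15 to 1.46 in the other 4 for the last. Summed ratios stood apart at 0.47 for the BMP pathway in 18_2, -0.48 for the Hedgehog pathway and 0.015 for paraxial mesoderm in 4_6, and 0.027 for motile cilia in 2_7.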

How the results depend on the processing

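The 16 calls became 153 with DESeq2, 46 in a fit of the 22 libraries only, 42 with no filter, 60 with limma on 1 ratio per embryo, 82 by the looping labels alone and 5 in males alone. With no replicate block, which drops the pairing of the sides, 8 genes were called. Leaving out 1 embryo gave 11 to 40, with 25 without 15_5 and 40 without 19_4. Chosen after seeing the data, a newer version of the quasi-likelihood fit called 36 and leaving out both 15_5 and 19_4 called 56. The cause was not tested. Of 273 alternative values for 11 called genes outside the cluster genes, 228 stayed past the threshold, 45 did not and 0 turned direction. In males alone 11 of the 11 missed the threshold, and without the block 6 did. Of 1146 values for 46 other genes, 27 passed the threshold and 8 turned direction. Leaving out 1 embryo gave -1.03 to 0.46 for *Lefty1* and -0.15 to 0.033 for *Ccdc40*. *Lefty1* turned to 1.23 in males alone, 0.075 without 3_7, 0.46 without 32_2 and 0.029 without 32_3. *Ccdc40* turned to 0.17 in males alone, 0.053 by the labels alone, 0.021 without 2_7 and 0.033 without 19_4. The level over both sides was called for 0 genes by edgeR, 1 by DESeq2 and 3 on the left alone. The difference of the ratio of totals stayed between -0.14 and -0.03. *Nodal* and *Lefty1*, with at most 22 counts in a library, could not be resolved at this depth.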
